A study of Mus musculus with 6 samples.

Results

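The major histocompatibility complex (MHC) and antigen presentation genes of the mouse were followed through the cells of 2 dissociated brain regions. The genes were taken by name: every gene listed for both regions whose symbol starts with H2-, with B2m, Cd74, Tap1, Tap2, Tapbp and Ciita added, the 2 gene lists being joined by Ensembl identifier with the symbols of the cortex list. This gave 40 genes of the 27514 that both lists hold, of which 34 are named H2-. No measured value entered the choice. Of the 40 genes, 37 lie on chromosome 17 (17:33915899-37483552, mm10), B2m on chromosome 2, Ciita on chromosome 16 and Cd74 on chromosome 18.

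Single-cell RNA was measured with 10x Genomics droplets in cortex from 3-week-old and hippocampus from 5-week-old female wild-type C57Bl/6J mice that received no treatment. For each region the tissue of 3 perfused mice was digested briefly at 37 °C with dispase II, papain and DNase I and cleared of myelin on Percoll, animal by animal and with no sorting or enrichment of any cell type. The cells were then joined in 1 pool, from which 3 technical replicate libraries were loaded. Each region is therefore 1 biological sample. No test between regions was possible, the SD given is that of 3 libraries of 1 pool, and region, age and preparation cannot be told apart in any difference between cortex and hippocampus.

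Class I molecules consist of a heavy chain (H2-K1 and H2-D1, the classical genes, or a member of the H2-Q, H2-T and H2-M groups) bound to the invariant light chain B2m, and they show peptides from inside the cell to CD8 T cells and natural killer cells. The transporter subunits Tap1 and Tap2 carry peptides into the endoplasmic reticulum, where Tapbp (tapasin) holds the empty class I molecule beside them. Class II molecules consist of an alpha and a beta chain (H2-Aa with H2-Ab1, and H2-Eb1 of the E pair), travel with the invariant chain Cd74, and are loaded in endosomes by H2-DM (H2-DMa with H2-DMb1 or H2-DMb2), which H2-DO (H2-Oa with H2-Ob) restrains. Ciita is the transactivator of class II genes. Interferons induce the class I genes in most cells, and class II is typical of dendritic cells, B cells and activated macrophages, while resting microglia are known for low class II.

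The stretches just upstream of 8 members are printed because these members stand for the groups described here: light chain, classical and non-classical heavy chains, a class II chain and the DM and DO accessory genes. Each is the 140 bases that end before the RefSeq gene start in GRCm38.p6, read 5′ to 3′ on the strand of the gene, in lower case. Capitals mark matches, on either strand, to the interferon response motif GAAANNGAA, the kappa B motif GGGNNTTCC and the boxes of MHC promoters, which are GATTGG for the Y box, GCAACAG for the X1 box and TGACG for the X2 box. B2m, the light chain, is at chr2:122147547-122147686 on the plus strand, H2-K1 at chr17:34000348-34000487 minus, H2-D1 at chr17:35262954-35263093 plus, H2-Q7 at chr17:35439015-35439154 plus, H2-T23 at chr17:36032702-36032841 minus, H2-Aa at chr17:34287824-34287963 minus, H2-DMa at chr17:34122692-34122831 plus and H2-Oa at chr17:34092239-34092378 plus.
B2m: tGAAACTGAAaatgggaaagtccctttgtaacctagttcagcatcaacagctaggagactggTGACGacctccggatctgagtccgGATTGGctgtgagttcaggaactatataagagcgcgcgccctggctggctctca
H2-K1: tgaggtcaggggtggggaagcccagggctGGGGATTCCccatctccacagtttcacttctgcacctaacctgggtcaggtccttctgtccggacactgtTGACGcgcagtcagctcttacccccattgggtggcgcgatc
H2-D1: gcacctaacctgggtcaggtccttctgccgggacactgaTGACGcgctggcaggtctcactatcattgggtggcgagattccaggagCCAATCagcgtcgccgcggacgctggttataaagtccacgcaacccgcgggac
H2-Q7: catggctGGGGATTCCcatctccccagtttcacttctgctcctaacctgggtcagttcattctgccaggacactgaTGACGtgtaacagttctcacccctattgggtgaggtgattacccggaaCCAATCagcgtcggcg
H2-T23: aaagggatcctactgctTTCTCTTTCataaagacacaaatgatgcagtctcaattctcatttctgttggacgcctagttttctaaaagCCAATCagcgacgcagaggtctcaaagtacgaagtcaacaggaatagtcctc
H2-Aa: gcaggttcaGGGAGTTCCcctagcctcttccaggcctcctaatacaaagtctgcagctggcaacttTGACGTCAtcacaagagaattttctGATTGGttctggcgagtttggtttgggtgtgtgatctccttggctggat
H2-DMa: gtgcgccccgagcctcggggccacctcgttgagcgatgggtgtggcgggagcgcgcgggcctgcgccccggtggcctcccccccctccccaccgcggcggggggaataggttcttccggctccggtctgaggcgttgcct
H2-Oa: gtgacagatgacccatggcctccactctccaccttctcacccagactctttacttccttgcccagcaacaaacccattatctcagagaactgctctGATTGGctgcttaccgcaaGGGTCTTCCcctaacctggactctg
Of the 40 members 34 matched a promoter, read over 250 bases. GATTGG stood in 25 of the 34 against 15.1% of all 27025 promoters of that length, TGACG in 14 against 17.9%, GGGNNTTCC in 8 against 4.9%, GAAANNGAA in 3 (B2m, H2-T23 and H2-T22) against 7.2% and GCAACAG in 1 against 4.4%. The H2-D1 match to GGGNNTTCC lies farther upstream than the printed bases, and H2-DMa held none of the 5 motifs in its 250 bases. A match is a run of letters and not a bound site. Each motif was searched only as spelled above, so a missing match does not show that a gene lacks such a site.

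The cortex libraries held 17937 barcodes and 123281997 unique molecular identifiers (UMIs, each 1 captured transcript), 39662203 to 42097490 a library, and 13320 cells were kept. The hippocampus libraries held 15336 barcodes and 141788766 UMIs, 43963706 to 50024850 a library, and 14210 cells were kept. Between libraries of a preparation 71 kept cortical and 749 kept hippocampal cells had a barcode in common, 558 of the latter in the epithelial-like class and 45 in the ependymal-like class. Cells were clustered with the 40 genes left out, so that no class rests on them, and clusters were named X-like from marker lists. The ending is left out of the class names from here on. Microglia made up 6177 cortical and 5823 hippocampal cells, endothelial cells 2685 and 2136, astrocytes 2730 and 1892, and macrophages 89 and 159. The T/NK class had 22 and 40 cells, and the 26 B cells formed a class in the cortex alone, because those of the hippocampus clustered with its T/NK cells. The cortical class of 179 cells named monocyte by its markers was mixed, and its subclusters are given apart.

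Levels are CPM, the UMIs of a gene scaled to a common total over the shared genes, with the mean and SD over the 3 libraries. A member was called higher or lower in one set of cells than in another when the summed UMIs differed at least 2-fold in CPM and all 3 libraries of one set lay above all 3 of the other, among genes with at least 10 UMIs in both sets together. Beside each count of called members from the clustering described here stands the share of all genes that the same rule called. Counts from other ways of processing, or with a library left out, carry no such share. They show only how far a count moved and cannot be set against all genes. Intervals are exact at 95% and cover the counting of UMIs, or of cells for a share, and nothing else. Barcodes under the gene minimum carried class I transcripts as well. Their level stands for that of free RNA from here on, but what these barcodes held was not tested. Haemoglobin apart, the 3862 of the cortex had 103.9 CPM of B2m, 20.25 of H2-K1 and 39.85 of H2-D1, and the 353 of the hippocampus had 25.47, 12.74 and 20.38. B2m in cortical astrocytes (95.38 CPM) and oligodendrocytes (45.31 CPM) and H2-D1 in cortical astrocytes (37.33 CPM) and oligodendrocytes (30.23 CPM) did not exceed that level and are not read as expression.

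Class I transcripts were found in every class, and among the classes listed here B2m ran from T/NK cells, macrophages and microglia down to oligodendrocytes in both preparations. B2m stood at 2188 ± 378.5 CPM (SD, n = 3 libraries) in cortical T/NK cells, 1844 ± 130.9 in microglia and 1631 ± 249.7 in macrophages, 3 classes whose SDs overlap. It stood at 1110 ± 430.6 in B cells, 602.9 ± 57.93 in endothelial cells, 272.6 in fibroblasts, 95.38 ± 3.936 in astrocytes and 45.31 in oligodendrocytes. In the hippocampus B2m was 2299 in T/NK cells, 1927 ± 170.2 in macrophages, 1405 ± 17.08 in microglia, 915.5 ± 10.59 in endothelial cells, 331.3 in fibroblasts, 245.1 in pericytes, 150.1 in astrocytes, 100 in epithelial cells, 85.34 in ependymal cells and 52.1 in oligodendrocytes. Microglia thus lay next to T/NK cells and macrophages in B2m, and oligodendrocytes had the lowest level of the classes named here. Higher still was a subcluster of 48 cells of the mixed monocyte class, with monocyte markers, at 3624, 3636 and 2932 CPM of B2m in its 3 libraries.

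H2-K1, a classical heavy chain, had another order, because microglia stood below the endothelium in the hippocampus. In the hippocampus it was 2613 ± 283.1 CPM in T/NK cells, 954.1 ± 166 in macrophages, 648.2 ± 31.25 in endothelial cells, 368.1 ± 6.458 in microglia, 233.2 ± 37.16 in fibroblasts, 148.8 ± 14.64 in pericytes and 134.6 ± 4.521 in astrocytes. Ependymal cells (100.9 ± 21.57), vascular smooth muscle cells (VSMC, 96.36 ± 7.552), oligodendrocyte precursors (91.03 ± 51.33) and neurons (87.04 ± 12.85) followed and did not differ beyond their SDs, with epithelial cells at 50.68 ± 6.296 and oligodendrocytes at 21.88 ± 0.2381. In the cortex it was 2198 in T/NK cells, 1135 in B cells, 574.8 ± 65.4 in macrophages, 381.7 ± 8.769 in microglia, 290.1 ± 3.494 in endothelial cells, 152 in fibroblasts and 110.3 ± 4.336 in astrocytes. H2-D1, the other classical heavy chain, was higher in endothelial cells than in microglia in both preparations, at 583 ± 45.71 against 438.4 ± 23.46 CPM in the cortex and 1060 ± 26.71 against 436 ± 1.634 in the hippocampus. H2-D1 was 37.33 CPM in cortical and 55.7 in hippocampal astrocytes.

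**Figure D1:**
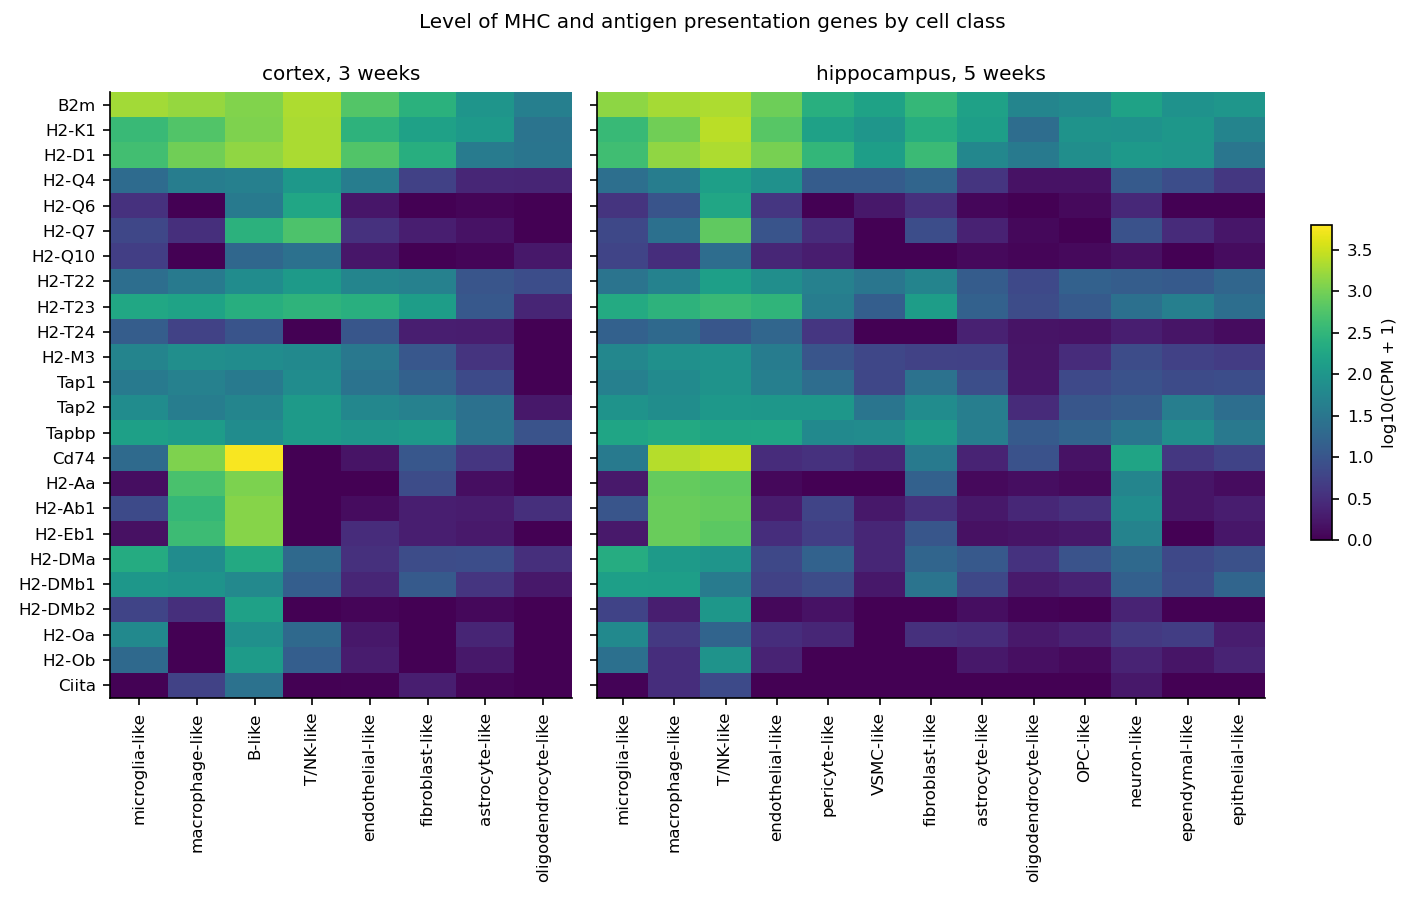
Heat maps of the level pooled over 3 libraries, as log10(CPM + 1), of 24 members (rows) in the named classes (columns) of cortex at 3 weeks and hippocampus at 5 weeks, with the mixed monocyte class and the erythroid class left out. B2m, H2-K1 and H2-D1 are seen in every class and are highest in T/NK cells, while Cd74 and the class II chains are high in macrophages, cortical B cells and the hippocampal T/NK class, and H2-DMa, H2-DMb1, H2-Oa and H2-Ob are also high in microglia.

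The classes differed in the ratio of classical heavy chain to light chain. Microglia had the lowest ratio of H2-K1 and H2-D1 UMIs to B2m UMIs, 0.4448 ± 0.04507 in the cortex and 0.573 ± 0.0127 in the hippocampus. The ratio was 1.444 ± 0.2074 and 1.866 ± 0.0413 in endothelial cells, 0.984 ± 0.1609 and 1.268 ± 0.1481 in macrophages, and 1.544 ± 0.1255 and 1.267 ± 0.1327 in astrocytes. In both preparations every microglial library lay below every endothelial and macrophage library. The ratio of cortical astrocytes rests on B2m and H2-D1 levels that did not exceed those of the barcodes under the gene minimum. The balance of H2-K1 to H2-D1 also went with class. Astrocytes had 2.964 ± 0.285 H2-K1 UMIs for each H2-D1 UMI in the cortex and 2.417 ± 0.09783 in the hippocampus, and epithelial cells had 1.674 ± 0.3801. Cortical astrocytes had H2-D1 no higher than the barcodes under the gene minimum, while their H2-K1, at 110.3 CPM, was above those barcodes' 20.25. The ratio was 0.4983 ± 0.03701 and 0.6119 ± 0.0145 in endothelial cells, 0.8703 ± 0.03613 and 0.8449 ± 0.01162 in microglia, and 0.4564 ± 0.05391 in pericytes. The ratios are compared between classes and are not read as amounts of one gene against another, since no correction for transcript length was made.

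Hippocampal endothelium carried more class I transcripts than cortical endothelium. H2-K1 was 684.3, 629.3 and 631.1 CPM in the 3 hippocampal libraries and 287.5, 294.1 and 288.8 in the 3 cortical ones. The groups did not overlap, and the level was 2.24-fold higher in the hippocampus (log2 1.16, interval 1.12 to 1.20). H2-D1 was 1090, 1039 and 1051 CPM against 530.3, 610.8 and 608 (1.82-fold). B2m was 927.5, 907.4 and 911.7 against 665.3, 592.6 and 550.8 (1.52-fold). Neither of these overlapped, and both stayed under the 2-fold limit. Of 23 members tested, 7 were called higher in hippocampal endothelium, a call made for 6.21% of all genes, and the members' median log2 ratio was 0.85 beside 0.17 over all genes. The 7 were H2-K1, the H2-Q genes H2-Q4, H2-Q6 and H2-Q7, and the class II accessory genes H2-DMa, H2-DMb1 and H2-Oa. One member was called lower, a call made for 3.08% of all genes: H2-M5, with 1 against 9 UMIs (log2 −2.59, interval −8.04 to 0.27).

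Among the H2-Q genes, which encode non-classical class I chains, H2-Q4 was 94.1, 80.83 and 75.47 CPM in hippocampal and 36.5, 45.55 and 36.69 in cortical endothelium (2.11-fold). H2-Q7 was 8.605, 9.67 and 8.058 against 1.831, 4.404 and 1.167 (3.56-fold), and H2-Q6 4.40-fold higher on 47 against 16 UMIs. H2-Q6 and H2-Q7 share sequence: 21.4% of the 90-base windows at the 3′ end of H2-Q6 also occur in H2-Q7, so the split of H2-Q6 reads from H2-Q7 is uncertain. The H2-T genes differed less. H2-T23 (Qa-1, the ligand of the natural killer receptor NKG2A) was 1.22-fold, H2-T22 1.39-fold, H2-T24 1.75-fold and H2-M3, which presents formylated peptides, 1.20-fold higher in hippocampal endothelium, and none was called. Of the 3′ windows of H2-T22, 13.2% also occur in H2-T10, which neither gene list holds, so part of its count is uncertain in every comparison. The peptide-loading genes lay between: Tap1 was 1.56-fold, Tap2 1.81-fold and Tapbp 1.77-fold higher, none of them called and none with overlapping libraries. An exon of Tapbp overlaps Zbtb22, so that part of its reads cannot be assigned with certainty.

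**Figure D2:**
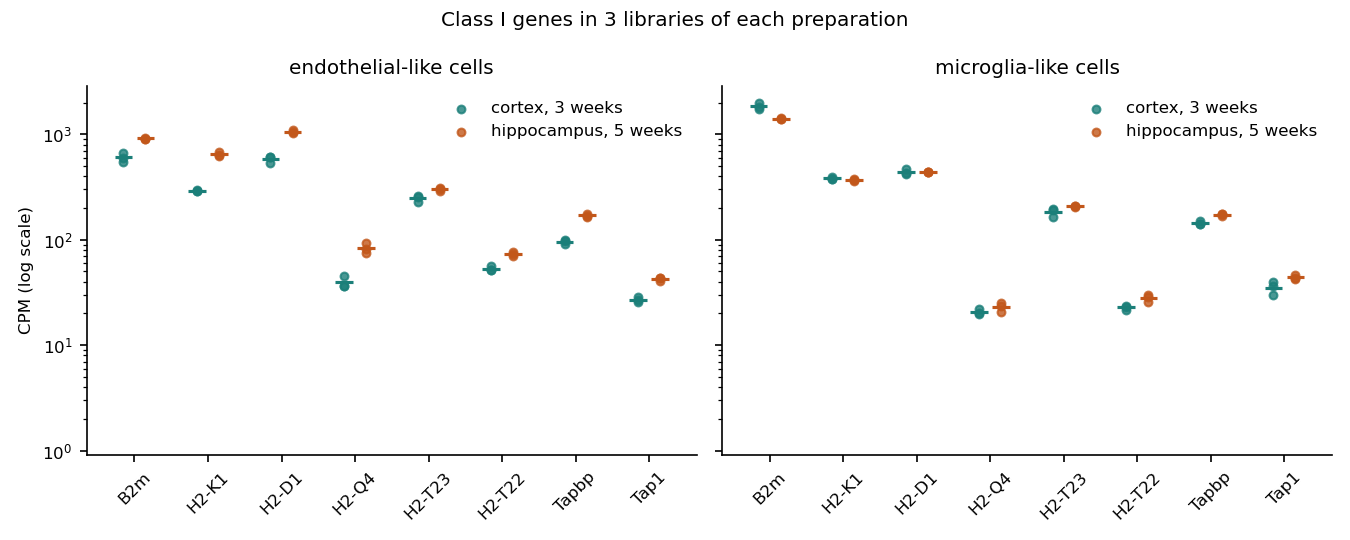
Levels in CPM, on a log axis, of 8 class I and peptide-loading genes in endothelial cells (left) and microglia (right), with 1 point for each of the 3 libraries and a bar at their mean. The hippocampal libraries lie above the cortical ones for all 8 genes in endothelial cells, with H2-K1 at 629.3 to 684.3 against 287.5 to 294.1, while in microglia B2m lies below.

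The H2-DM and H2-DO genes of the endothelium were scarce. H2-DMa had 90 against 56 UMIs (2.41-fold), H2-DMb1 74 against 38 (2.92-fold) and H2-Oa 34 against 18 (2.83-fold). All 10 genes of the microglia marker list were found in endothelial cells of both preparations, and their summed level was 753 to 1097 CPM in the hippocampal and 178.8 to 496.4 in the cortical libraries. Microglia had higher levels of these 3 genes than endothelial cells in both preparations, and the part of microglial transcripts in the result was not tested. In cortical endothelium H2-DMa (2.337 CPM) and H2-DMb1 (1.6 CPM) did not exceed the barcodes under the gene minimum (3.92 and 2.613 CPM), and in hippocampal endothelium H2-DMb1 (4.614 CPM) did not exceed them (5.094 CPM). The folds of these 2 genes are therefore not read as expression. Those 3 barcode levels themselves rest on 6, 4 and 2 UMIs. In cortical endothelium H2-Oa (0.7546 CPM pooled) and H2-Q6 (0.6708) lay close to the barcodes' 0.6533 CPM, 1 UMI for each gene. The folds of H2-Oa and H2-Q6 thus start from a level near that of these barcodes. With called doublets left out, 4 of the 7 members were called higher, and they were H2-K1, H2-Q4, H2-Q6 and H2-Q7.

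The excess of H2-K1 was smaller in the arterial and venous segments, taken over all cells so named by markers. The cortical cells so named were few. In endothelium with arterial markers (597 hippocampal and 169 cortical cells) H2-K1 was 776.4, 703.7 and 650.6 against 417.8, 486.3 and 457.5 CPM (1.57-fold). The hippocampal arterial cells came from subclusters of 566 and 31 cells, with H2-K1 at 670.9 and 1232 CPM and H2-Q7 at 6.128 and 60. The 169 cortical cells had 453.1 and 12.74 CPM pooled, and shared Eln, Fbln5 and Gkn3 as leading genes with the 31. In endothelium with venous markers (252 and 64 cells) it was 840.4, 772.9 and 937.4 against 435.4, 628.1 and 683.1 CPM (1.46-fold). The libraries did not overlap in either segment. H2-D1 was 1.26-fold higher in arterial and 1.41-fold in venous endothelium, B2m 1.21-fold and 1.28-fold, and H2-Q4 1.39-fold and 1.58-fold. Some members did not keep their direction. In arterial endothelium H2-Q7 was at 0.772 and H2-Q6 at 0.666 times the cortical level, with log2 intervals of −1.11 to 0.41 and −1.92 to 0.86, while in venous endothelium they were at 1.64 and 1.73 times. H2-T23 was at 1.44 times the cortical level in arterial and 0.911 times in venous endothelium. H2-T24 was at 4.68 and 1.96 times. Another 78 hippocampal cells with arterial markers were left out, because 7 of their 10 leading genes were markers of mural cells (Acta2 and Pdgfrb among them), and their H2-K1 averaged 595.5 ± 49.39 CPM. In the hippocampus the 798 capillary cells had 502.7 ± 58.66 CPM of H2-K1, below the arterial (710.2 ± 63.17) and venous cells (850.2 ± 82.67). No cluster of cortical endothelium met the naming rule for capillaries, so that segment has no counterpart, and the whole endothelium compares unlike mixtures of segments. The arterial comparison likewise set a mixture of hippocampal subclusters against a single cortical one. The other 2621 cortical endothelial cells of this subclustering had no segment name, with H2-K1 at 262.5 ± 6.897 CPM. The 414 unnamed hippocampal cells, with the 78 among them, had 651.4 ± 71.69.

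A group of 146 hippocampal endothelial cells, picked after its values were seen, was led by Ifit1, Ifit3 and Ifit3b, which interferons induce. It had 747.7 CPM of H2-K1, 1065 of H2-D1, 1127 of B2m and 368.8 of H2-T23. The subcluster of 31 arterial cells given above had 1232 of H2-K1 and 2217 of H2-D1. Mural cells of the same vessels had less, with H2-K1 at 136.3 CPM in the largest pericyte group and 97.59 in VSMC. Of 16 interferon-induced genes on a list, 5 were called higher in hippocampal endothelium as a whole, beside 6.21% of all genes, and 0 lower, beside 3.08%. The 5 were Ifit2 (3.22-fold), Ifit3 (3.43-fold), Ifit3b (4.45-fold), Irf7 (2.44-fold) and Ifi27l2a (5.82-fold). The median log2 ratio of this list was 0.81. Of 12 further genes of the class I pathway 1 was called higher, near the 6.21% of all genes. It was Nlrc5, the transactivator of class I genes (2.58-fold). The immunoproteasome subunits Psmb8 (1.70-fold) and Psmb9 (1.76-fold) and the factor Irf1 (1.76-fold) had higher levels in all 3 hippocampal libraries without being called, and the list's median was 0.47.

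In microglia the members differed little between preparations. Of 26 tested, 0 were called higher and 0 lower, calls made for 4.48% and 2.78% of all genes, and the median log2 ratio was 0.20 beside 0.12 over all genes. B2m was 1409, 1386 and 1419 CPM in hippocampal and 1991, 1801 and 1740 in cortical microglia, 1.31-fold lower in the hippocampus with no overlap. H2-K1 was 364.7, 375.6 and 364.1 against 380.9, 373.3 and 390.8 CPM, with overlapping libraries, and H2-D1 was 435.1, 437.9 and 434.9 against 417.6, 433.9 and 463.8. B2m thus differed in opposite directions in endothelium and in microglia. The largest ratio on more than 100 UMIs was that of Cd74, at 31.91, 38.89 and 33.11 against 20.1, 17.83 and 19.97 CPM (1.80-fold), followed by H2-Ab1 (1.49-fold, near the level of free RNA) and H2-DMb1 (1.33-fold). When cells were assigned singly, from the markers they held, instead of by cluster, 4 members were called higher in hippocampal microglia (H2-Ab1, H2-Aa, H2-Eb1 and Cd74).

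Astrocytes and macrophages gave few calls on few UMIs. In astrocytes 1 of 21 members was called higher in the hippocampus (6.15% of all genes), H2-Q7 with 17 against 9 UMIs, and 0 lower (4.04%). B2m was 164.6, 137 and 148.9 CPM in hippocampal against 94.98, 99.5 and 91.66 in cortical astrocytes. The cortical level, like that of H2-D1, did not exceed the barcodes under the gene minimum, so no fold is given for either. H2-K1 was 1.22-fold higher in hippocampal astrocytes. In macrophages 2 of 19 members were called higher (6.39% of all genes) and 0 lower (1.69%): H2-Q7 with 22 against 1 UMIs (10.5-fold, log2 interval 0.76 to 8.75) and H2-T24 with 17 against 2 (4.04-fold, log2 interval −0.06 to 5.17). With the members kept among the variable genes instead, 1 was higher and 10 were lower in the hippocampus, and H2-Q7 turned (log2 −1.59). H2-K1 was 789.1, 952 and 1121 CPM in hippocampal and 511, 641.7 and 571.8 in cortical macrophages, 1.59-fold apart without overlap. H2-D1 was 1.53-fold and H2-T23 1.78-fold higher in the hippocampal macrophages, and neither was called. The hippocampal class held 13 cells of an immune subcluster with monocyte markers (H2-K1 1710, H2-D1 2598 CPM), and the cortical class held none of such a subcluster. Between the deeper of the macrophage subclusters of each preparation (82 and 41 cells of the class) H2-K1 was 805.4, 803.2 and 775.9 CPM against 531.9, 693.5 and 612.9, and H2-D1 1219, 1244 and 1224 against 1192, 954.3 and 1060.

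A subcluster of microglia rich in interferon-induced transcripts, chosen by the summed level of the list of 16 interferon-induced genes, carried more class I transcripts than the remaining microglia. It had 160 of 6177 microglia in the cortex and 132 of 5823 in the hippocampus, and all 16 genes of the list, which the choice used, were higher in it in both preparations (5.88- to 141-fold). Clustering had left the MHC members out. In the hippocampus 10 of 24 members were called higher in it, a call made for 1.57% of all genes, with a median log2 ratio of 0.79 beside −0.09 over all genes. H2-K1 was 816.9, 1008 and 705.6 CPM in the subcluster and 351.5, 358.9 and 355.7 in other microglia (2.40-fold). H2-D1 was 1062, 1185 and 903.1 against 416.8, 418.1 and 423.4 (2.53-fold). Tap1 was 100.1, 112.9 and 103.6 against 40.96, 44.46 and 42.17 (2.48-fold). The libraries stood far apart for all 3 genes. H2-Q7 was 57.97, 67.19 and 16.18 against 4.637, 4.261 and 4.401 (11.1-fold) and H2-Q6 16.2-fold higher, with the third library of the subcluster well below the other two. H2-Q4 (2.50-fold), H2-T23 (2.40-fold), Cd74 (2.30-fold), H2-T24 (2.07-fold) and H2-T22 (2.03-fold) completed the calls. B2m was 1.79-fold, H2-M3 1.67-fold, Tap2 1.34-fold, Tapbp 1.27-fold and H2-DMa 1.03-fold higher, and none of these was called.

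In the cortex the interferon subcluster gave 2 calls among 24 members, beside 1.56% of all genes, with a median log2 ratio of 0.42 beside −0.06 over all genes. H2-T24 was 64.32, 47.84 and 39.85 CPM in the subcluster and 10.44, 12.39 and 10.55 in other microglia (4.41-fold). H2-T23 was 313, 494.3 and 508.9 against 163.1, 179.8 and 188.3 (2.57-fold). H2-K1 was 548.9, 526.2 and 702 against 377.4, 368.4 and 381.7 (1.58-fold), H2-D1 was 1.52-fold and B2m 1.38-fold higher, each without overlap and under 2-fold. Tap1 was just under the limit at 1.99-fold. H2-Q7 was 2.41-fold higher on 12 UMIs with overlapping libraries, and H2-Q4 was 1.04-fold higher. Nlrc5 was called higher there (16.3-fold), the only call among the 12 other genes of the class I pathway, beside 1.56% of all genes. In the hippocampus 0 of these 12 were called higher, a call made for 1.57% of all genes. The list's median log2 ratio was 0.62 there and 0.57 in the cortex.

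**Figure D3:**
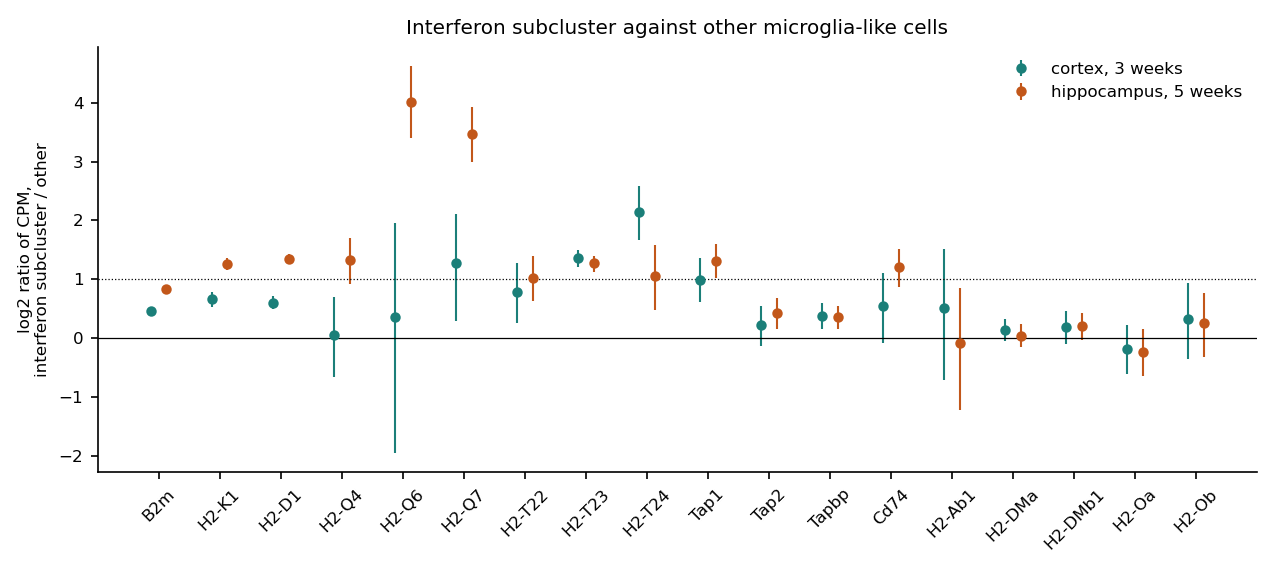
Log2 ratio of CPM in the interferon subcluster over other microglia, for 18 members in cortex and hippocampus; bars are exact 95% intervals of counting error, the solid line marks equal levels and the dotted line a 2-fold excess. H2-Q6 and H2-Q7 stand highest in the hippocampus and H2-T24 in the cortex, and H2-DMa, H2-DMb1, H2-Oa and H2-Ob lie near equal levels.

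The class II genes of microglia split by role, apart from the accessory gene H2-DMb2. It was low, at 5.006 CPM pooled in the cortex and 4.904 in the hippocampus, below H2-Ab1 (6.065 and 9.02). The accessory genes were present in every microglial library: H2-DMa averaged 217.6 CPM in the cortex and 223.6 in the hippocampus, H2-DMb1 102.8 and 136.4, H2-Oa 62.84 and 62, and H2-Ob 18.89 and 23.99. Transcripts of the alpha and beta chains were nearly absent. H2-Aa averaged 0.4011 CPM (14 UMIs) in cortical and 0.8443 CPM (34 UMIs) in hippocampal microglia, H2-Eb1 0.4557 and 0.7854, and H2-Ab1 6.047 and 9.013. Ciita had 2 and 3 UMIs in all microglia. Cd74 averaged 19.3 and 34.63 CPM. The barcodes under the gene minimum in the cortex held 3.92 CPM of H2-DMa, 3.267 of Cd74 and 1.307 of H2-Ab1, and 0 of H2-Aa and H2-Eb1. Those of the hippocampus held 2.547 CPM of H2-DMa (1 UMI), 5.094 of Cd74 (2 UMIs), 7.642 of H2-Ab1 (3 UMIs) and 2.547 of H2-Eb1 (1 UMI), and 0 of H2-Aa. H2-Eb1 of hippocampal microglia did not exceed that level and H2-Ab1 lay close to it, so neither is shown to be above free RNA.

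Endothelial cells and microglia of one preparation differed in most class II members. In the cortex 11 of 25 members were called lower in endothelial cells than in microglia, beside 21.2% of all genes, and 2 higher, beside 24.3%. In the hippocampus 9 of 24 were called lower, beside 19.9%, and 4 higher, beside 23.9%. H2-DMa was 92.7-fold lower in cortical and 39.5-fold lower in hippocampal endothelium, H2-Oa 83.3- and 29.0-fold lower, and Cd74 32.9- and 16.8-fold lower. Endothelial Cd74 (0.5869 CPM pooled in the cortex, 2.074 in the hippocampus) did not exceed the barcodes under the gene minimum (3.267 and 5.094). Nor did H2-DMa of cortical endothelium (2.348 against 3.92 CPM). These folds set microglia against a level no higher than that of free RNA. Those called higher were H2-T22 (2.33- and 2.61-fold) and H2-Eb1 in both preparations, with H2-D1 (2.43-fold) and H2-Q4 (3.61-fold) in the hippocampus. H2-Eb1 rested on 48 against 16 UMIs in the cortex and 34 against 32 in the hippocampus, and its direction turned when cells were assigned singly (log2 −1.17 and −1.86). In the hippocampus neither endothelial cells (2.136 CPM pooled) nor microglia (0.7886) exceeded the barcodes under the gene minimum in H2-Eb1 (2.547). That call is therefore not read as expression. B2m was 3.05-fold lower in cortical endothelium, a call, and 1.53-fold lower in hippocampal endothelium, no call. H2-K1 was 1.31-fold lower in endothelium than in microglia in the cortex and 1.76-fold higher in the hippocampus, with no overlap of libraries in either.

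In both preparations macrophages were called higher than microglia in H2-Eb1 and Cd74 and lower in both H2-DO genes, and few macrophages carried the excess. Both this comparison and that of the endothelium used the same microglia. In the cortex 5 of 24 members were called higher in macrophages (5.5% of all genes): H2-Aa, H2-Ab1, H2-Eb1, Cd74 and H2-D1. In the hippocampus 5 of 24 were called higher (7.21%): H2-Eb1, Cd74, H2-K1, H2-D1 and H2-Q7. This H2-Eb1 call (1407, 2.759 and 1453 CPM) depended on 1 UMI in the second library, close to the 2.547 CPM of the barcodes under the gene minimum. Called lower were 5 in the cortex (13%), namely H2-Oa, H2-Ob, H2-DMa, H2-Q7 and H2-T24, and 3 in the hippocampus (11.1%), namely H2-Oa, H2-Ob and H2-DMb2. Some of these calls rested on single macrophage UMIs. H2-Q7 in the cortex had 1 UMI (log2 −1.26, interval −6.57 to 1.23), H2-DMb2 in the hippocampus 1 (log2 −2.16, interval −7.47 to 0.33) and H2-T24 in the cortex 2 (log2 −1.40, interval −4.45 to 0.46). H2-Oa had 0 UMIs in cortical macrophages, at least 9.09-fold below microglia, and 3 in hippocampal macrophages (18.9-fold lower, log2 interval −6.52 to −2.69). H2-Ob had 0 UMIs in cortical macrophages, at least 2.73-fold below microglia, and 2 in hippocampal ones (10.95-fold lower, log2 interval −6.50 to −1.60). H2-DMa was 48.66, 56.62 and 100.1 CPM in cortical macrophages against 203.1, 223.3 and 226.4 in microglia (3.15-fold lower), and in the hippocampus 107.4, 49.67 and 225 against 225, 216.7 and 229.2, where it was not called. The direction of H2-Eb1 in cortical macrophages turned when cells were assigned singly (log2 −0.18). With the members kept among the variable genes, 13 members were called higher in cortical macrophages, and H2-DMa (log2 1.05) and H2-Q7 (log2 3.23) turned. The classical heavy chain H2-D1 was 2.19-fold higher in cortical and 3.38-fold higher in hippocampal macrophages than in microglia, and H2-K1 1.56-fold (not called) and 2.57-fold.

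In proportion to their level, the class II chains varied far more between libraries of macrophages than B2m, H2-K1 and H2-D1. H2-Aa was 48.66, 405.8 and 914.9 CPM in the 3 cortical libraries and 1185, 0 and 1504 in the 3 hippocampal libraries. Cd74 was 231.2, 1095 and 1823 CPM, and 3650, 71.74 and 4331. The second hippocampal library was thus near the level of microglia while the other 2 were the highest of all, and for that reason H2-Aa and H2-Ab1 were not called in the hippocampus. A limit of 10 UMIs of H2-Aa, H2-Ab1 and H2-Eb1 together, set after the values were seen, marked class II cells. It was met by 5 of 89 cortical and 11 of 159 hippocampal macrophages, none of the latter in the second library. Of the 11, 8 were among the 13 cells of the immune subcluster with monocyte markers. The 82 cells of the deeper hippocampal macrophage subcluster had 132.7 CPM of Cd74. The 16 cells that met the limit held nearly all class II UMIs of the class. Below the limit Cd74 was 53.68 CPM in cortical and 77.34 in hippocampal macrophages, and at or above it 11320 and 19190.

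The macrophages at or above the limit also differed in genes that the limit did not use. Mrc1, the mannose receptor of border macrophages, was 513.5 and 482.5 CPM in them and 3088 and 3174 in the others. Ccr2, a chemokine receptor of monocytes and their progeny, was 840.3 and 518.3 CPM in them and 2.556 and 1.247 in the others. These are pooled values of few cells. By library, the 5 cortical cells had 0, 1370 and 359.5 CPM of Ccr2 and 0, 330.7 and 770.3 of Mrc1. H2-K1 was 560.2 against 598.1 CPM in the cortex and 1305 against 895.7 in the hippocampus. After each cell was thinned to 1000 UMIs, with 15 cortical and 12 hippocampal macrophages of fewer UMIs left out, at least 1 UMI of a class II chain was found in 8.108% ± 1.759 of cortical macrophages (exact interval of the pooled share 3.034% to 16.82%) and in 7.483% ± 6.916 of hippocampal ones (3.795% to 12.99%). These intervals take cells as independent draws and do not cover differences between libraries or animals. Unthinned, over all cells of the class, the shares were 6.742% and 8.805%. In microglia the thinned share was 0.7046% and 1.134% (unthinned 3.303% and 5.942%). Astrocytes, which should lack class II, had 0.1556% and 0.2269% at median depths of 6495 and 6533 UMIs, beside 3873 and 5288 UMIs in macrophages, and endothelial cells had 0.149% and 0.3908%.

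**Figure D4:**
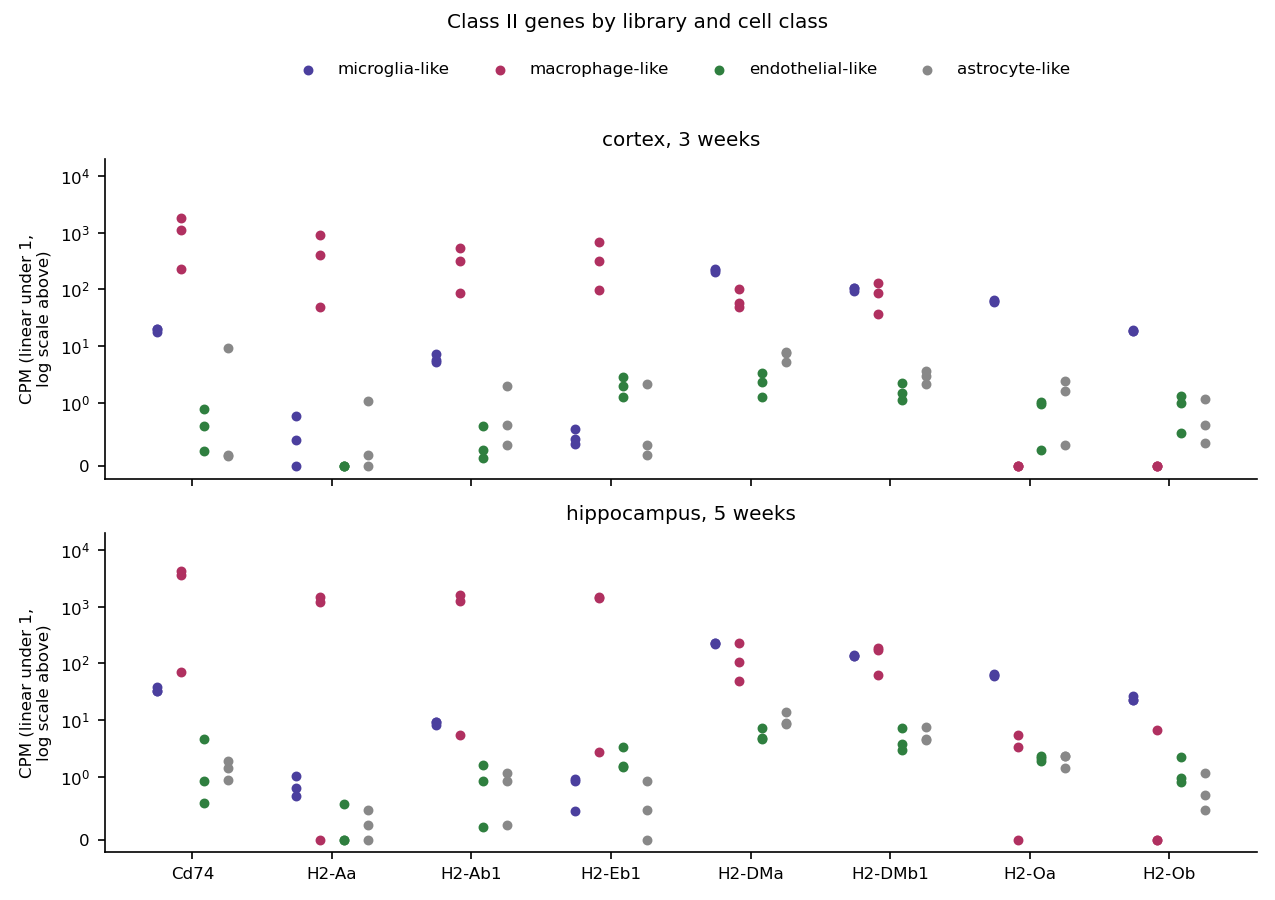
Levels in CPM (linear under 1, log scale above) of Cd74 and 7 class II genes in microglia, macrophages, endothelial cells and astrocytes, with 1 point for each of the 3 libraries. The macrophage class is high in Cd74 and the class II chains, except in the second hippocampal library, where H2-Aa is 0. In the hippocampus 13 of its cells, from an immune subcluster with monocyte markers, held 2087 of its 2307 class II UMIs. Microglia are highest in H2-Oa and H2-Ob.

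Most class II transcripts came from few cells outside the macrophage class. Only 41 of 13320 cortical and 43 of 14210 hippocampal cells reached the limit of 10 class II UMIs. In the cortex 21 cells of the mixed monocyte class held 8883 of 10556 class II UMIs (84.15%), at 23770 CPM of Cd74. The immune subcluster that held them, with 21 T/NK cells that had 0 class II UMIs, had 1166 CPM of Ccr2 and 416.5 of Cd209a, a lectin of monocyte-derived dendritic cells. In the hippocampus an immune subcluster of 39 cells held 9010 of 11816 class II UMIs (76.25%), with 517.9 CPM of Ccr2 and 407.9 of Cd209a. Of those 39 cells 24 had no class name, 13 were in the macrophage class and 2 in the T/NK class. The 24 held 58.58% of all class II UMIs, and the 13 held 17.66%, or 2087 of the 2307 of the macrophage class. The neuron class of the hippocampus held 1100 (9.309%), with 2 of its 588 cells at or above the limit. It also carried macrophage markers, at a summed 3.468, 79.2 and 68.68 CPM in its 3 libraries. Whether neurons made these class II transcripts was not tested. Ciita was at 41.93 ± 15.7 CPM (70 UMIs) in the cortical monocyte class.

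**Figure D5:**
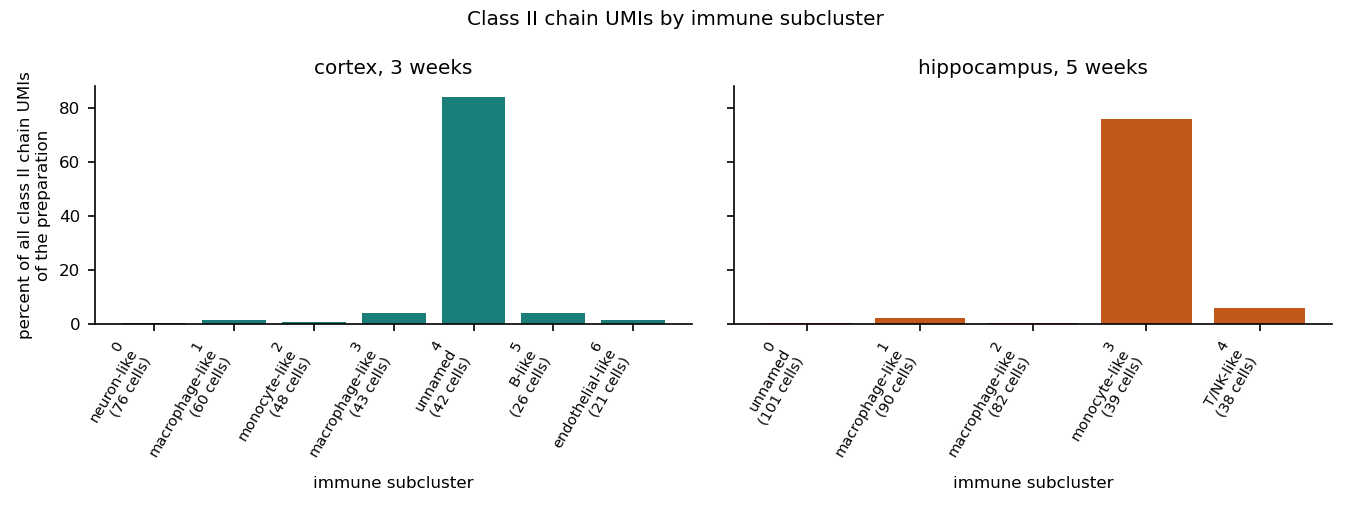
Percent of all UMIs of H2-Aa, H2-Ab1 and H2-Eb1 in a preparation that fell in each immune subcluster, with its name by markers and its number of cells. One subcluster holds 84.15% in the cortex and one 76.25% in the hippocampus.

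Lymphocytes and cells with monocyte markers had high classical class I levels. The cortical subcluster of 48 cells with monocyte markers had 3007, 3518 and 3253 CPM of H2-D1 and 1619, 1732 and 1383 of H2-K1. A hippocampal subcluster of 39 cells with monocyte markers had 2394, 2482 and 2460 of H2-D1. The 2 are unlike: the cortical one had 3.477 CPM of Cd209a and 73 class II UMIs, the hippocampal one 407.9 CPM and 9010 UMIs. The cortical subcluster rich in class II, of 42 cells with 21 T/NK cells among them, had 1593, 1872 and 2429 CPM of H2-D1. In T/NK cells H2-D1 was 2142 CPM in the cortex and 2215 in the hippocampus, and H2-Q7 511.1 and 779.1, against 5.516 and 5.574 in microglia. The 22 cortical T/NK cells had 0 UMIs of H2-Aa, H2-Ab1 and H2-Eb1. The 26 cortical B cells held 420 class II UMIs (3.979% of the total) and H2-DMb2 at 129 ± 77.04 CPM, against 4.997 in microglia. The hippocampal T/NK class showed the B cell marker Cd79a (673.2 CPM) beside the T cell marker Cd3g (856.5 CPM) in its main subcluster, so its class II share of 5.966% belongs to a mixture. H2-DMb2 was 120.1 ± 40.85 CPM there. Of the 3′ windows of H2-DMb1, 15.9% also occur in H2-DMb2, so the split of H2-DMb1 reads from H2-DMb2 is uncertain. Of the 3′ windows of H2-DMb2 itself, 1.4% are shared, with Zw10.

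In microglia with a high summed level of Ccl3 and Ccl4, chemokines that microglia make when activated, the 2 preparations chose unlike states. The cortical subcluster of 300 cells was led by Egr1 and Ccl2, genes of the early response to dissociation or injury. That of the hippocampus, 361 cells, was led by Cst7 and Lpl, genes of activated microglia. All were named after their values were seen, and Atf3 was among the leading genes of both subclusters. In the hippocampus 4 members were called higher (3.18% of all genes) and 0 lower (3.16%). Cd74 was 133.9, 161.1 and 201.9 CPM against 23.55, 27.65 and 19.57 in other microglia (6.94-fold), H2-Aa 14.9-fold (19 against 15 UMIs), H2-Eb1 17.2-fold (19 against 13 UMIs) and H2-Ab1 2.17-fold higher. In the cortex 1 member was called higher (1.75%), H2-Q10 (2.65-fold), and 0 lower (2.34%), and Cd74 was 23.67, 15.82 and 21.59 CPM against 19.89, 17.94 and 19.86. A cortical subcluster of 274 cells led by Cst7 and Lpl, also picked after the values were seen, had 91.28 CPM of Cd74. A hippocampal subcluster of 226 cells led by Atf3, Ccl3 and Ccl2, picked in the same way, had 37.27 CPM of Cd74. Its summed level of Ccl3 and Ccl4 was 2527 CPM, beside 2983 in the 361 cells.

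Ependymal cells, the ciliated lining of the ventricles, formed a class in the hippocampus preparation and were compared with its astrocytes. Of 19 members 2 were called higher, beside 23.1% of all genes. H2-T23 was 49.64, 32.13 and 43.42 CPM in ependymal cells and 13.31, 17.79 and 11.43 in astrocytes (2.98-fold), and H2-Q4 was 2.49-fold higher on 11 against 36 UMIs. Both calls remained without the cells whose barcode occurred in more than 1 library, and H2-T23 alone was called under median-of-ratios scaling. H2-D1 was 92.67, 126.5 and 80.33 against 52.53, 54.32 and 60.26 CPM (1.79-fold, not called). B2m was lower in ependymal cells, at 87.7, 66.27 and 102 against 164.6, 137 and 148.9 CPM, and H2-K1 was 114.2, 112.5 and 75.99 against 132.1, 131.8 and 139.8. Of the interferon list 11 of 16 genes were called higher in ependymal cells, beside 23.1% of all genes, and 0 lower. Hippocampal oligodendrocytes had 35.17 CPM of H2-D1 and 52.1 of B2m.

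The lists of neighbouring genes moved unevenly. Of 10 further measured genes of the class II pathway 6 were called lower in endothelial cells than in microglia in both preparations, beside 21.2% of all genes in the cortex and 19.9% in the hippocampus (Ctss, Ctsl, Lgmn, March1, Cd80 and Cd86, proteases, a ubiquitin ligase and costimulators). Of the same 10, 1 was called higher in both, beside 24.3% and 23.9% of all genes (Cd40, 350- and 114-fold). In macrophages against microglia 5 of the 10 were called lower in both, beside 13% and 11.1% of all genes (Rfx5, Ctss, Ctsl, Lgmn and March1). Of 3 class I-like genes Fcgrt, the neonatal Fc receptor, was called higher and Cd1d1, which presents lipids, lower in endothelial cells and in macrophages than in microglia in both preparations. The macrophage calls of Cd1d1 rested on few UMIs. It was 0, 4.718 and 0 CPM in cortical macrophages (log2 interval −8.6 to −0.81) and 6.716, 0 and 0 in hippocampal ones (−6.14 to −1.23). Cd1d1 was also called lower in hippocampal than in cortical endothelium. H2-Ke6, which lies in the MHC and encodes a hydroxysteroid dehydrogenase rather than a presenting molecule, was called in none of the 13 comparisons, and 57.8% of its 3′ windows are shared with Gm20427.

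Of the 40 members 28 reached 10 CPM in a class of at least 20 cells. The scarcest were H2-Q1, whose 24 cortical UMIs lay mostly in fibroblasts (60.86, 3.501 and 13.86 CPM in the 3 libraries), and H2-Eb2, a class II beta gene with 5 cortical and 6 hippocampal UMIs. Of the other 12, H2-T3, H2-M1, H2-M9, H2-M11 and the 6 genes H2-M10.1 to H2-M10.6 had 0 UMIs in both preparations, H2-Q2 had 3 and H2-M2 had 10. At these depths their expression was not detectable, which does not show that it was absent.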

How the data were processed

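The authors aligned the reads of the 6 droplet libraries to mm10 with Cell Ranger (version 5.0.1 in the submitters' processing notes, 3.0.1 and 3.1.0 in the file headers) and deposited raw UMI counts per gene and barcode, 1 matrix for each library. No column of other samples was present. Kept barcodes had 250 to 6000 genes and less than 25% of UMIs from mitochondria (15% for the vascular subclustering). Counts were normalised to 10000 per cell for clustering in Seurat 5.3.0 (R 4.3.3, 2000 variable genes, 30 components, resolution 0.5), separately in each preparation, with the 40 members left out of variable genes and markers. Clusters were named from 3 or more detected markers of a list, and an endothelial subcluster led by more mural than segment markers was left unnamed. Doublets were called with Scrublet in scanpy 1.11.5 (638 cortical and 581 hippocampal cells) and kept in the main values. UMIs were then summed per library and class and turned into CPM over the 27514 shared genes (Python 3.11.15, numpy 2.4.6, pandas 2.3.3). A set of cells without UMIs of a gene was given a floor of 3 counts over the set for a fold, written as a bound. Where the floor lay above the other level no ratio was given, and the gene ranked at the end of its direction in a median. Intervals are exact at the 95% level (conditional binomial for ratios, Clopper-Pearson for shares, scipy 1.17.1), and cells were thinned to 1000 UMIs by 1 fixed draw. No statistical test was made, since each preparation is 1 pool. The calls were checked on simulated counts with known 4-fold changes and counting error alone. Of unchanged genes 1.151% were called in microglia and 3.799% in macrophages. The simulation held no differences between libraries and no changes near 2-fold, so it does not cover these. Members with at least 10 CPM in a named class of at least 20 cells were named with values. The members, the gene lists and the comparisons were chosen with earlier results of these data known. Alternatives covered the clustering, the classing of cells, doublets, shared barcodes, the mitochondrial limit, the scaling and each library left out in turn. Sequences are from RefSeq (GRCm38.p6).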

Additional observations from a re-analysis of the deposited data

Results flagged for a closer look

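Several members differed in opposite directions in 2 groups compared in the same way, in every library, and none of these differences was tested. The libraries of the compared sets need not lie apart, since those of cortical macrophages and microglia overlap in B2m. No interval is given here, and the smaller ratios are not shown to exceed counting error. The interval of H2-Q7 in cortical macrophages over microglia, given above, holds equal levels. Each value is the log2 ratio of CPM, with the second group's ratio subtracted from the first's. Region, age and preparation cannot be told apart in them, and the comparisons with microglia share the microglia.

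The 4 members H2-K1, Tap2, H2-T24 and H2-Q7 were higher in endothelium than in microglia of the hippocampus and lower in that of the cortex. H2-K1, a classical heavy chain, was at 0.82 in the hippocampus and −0.40 in the cortex, a difference of 1.22. Tap2, a subunit of the peptide transporter, was at 0.18 and −0.31 (difference 0.49). The non-classical heavy chain H2-T24 was at 0.25 and −0.35 (difference 0.60), and H2-Q7 at 0.65 and −1.16 (difference 1.81).

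Macrophages over microglia gave the same pair of directions for the light chain B2m, at 0.44 in the hippocampus and −0.22 in the cortex (difference 0.66), and for H2-T23, at 0.44 and −0.21 (difference 0.65). H2-Q7 was at 2.11 and −1.26 there (difference 3.37), on 22 hippocampal and 1 cortical macrophage UMIs.

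Hippocampal cells had more B2m than cortical ones in endothelium (0.60) and less in microglia (−0.39), a difference of 0.99. The value for astrocytes against microglia was 1.04, but B2m of cortical astrocytes did not exceed the level of the barcodes under the gene minimum, so it is not read as a difference in expression.

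Within microglia the differences were smaller. The subclusters rich in Ccl3 and Ccl4 were unlike states in the 2 preparations, so theirs is not one contrast in a pair of regions. There B2m was at 0.30 over other microglia in the hippocampus and −0.07 in the cortex (difference 0.37), and H2-DMa at 0.15 and −0.10 (difference 0.25). The cortical subcluster led by Cst7 and Lpl, which also led the hippocampal one, averaged 2096 CPM of B2m and 255.2 of H2-DMa, above the 1844 and 217.6 of all cortical microglia. In the interferon subcluster H2-Ke6 was at −0.40 in the hippocampus and 0.12 in the cortex (difference −0.52).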

How the results depend on the processing

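No paired analysis was possible because the results come from no test and the replicate number only names 3 libraries of 1 pool. Of the recomputed counts and shares 271 stayed within the limits set for them (1.5 times for a count, 1 SD for a share) and 42 moved. Of the recomputed ratios of single members 916 kept their direction and their call, 52 lost the call and 7 turned. With cells assigned singly, from the markers they held, 4 members were higher in hippocampal microglia (0 in the report), 4 in hippocampal endothelium (H2-K1 among them), 1 in cortical endothelium over microglia, 2 in cortical and 3 in hippocampal macrophages over microglia and 1 in ependymal cells, and 2.899% of cortical macrophages had a class II UMI after thinning. The same assignment turned H2-Oa in hippocampal endothelium (log2 −0.14), H2-Eb1 in endothelium over microglia (−1.17 and −1.86) and H2-Eb1 in cortical macrophages over microglia (−0.18). With the members kept among the variable genes, the counts were 0 in hippocampal astrocytes, 1 higher and 10 lower in hippocampal macrophages, 13 in cortical macrophages over microglia and 1 in ependymal cells, the cortical share was 17.65%, and H2-Q7 in hippocampal macrophages (−1.59) and H2-DMa (1.05) and H2-Q7 (3.23) in cortical macrophages over microglia turned. Without called doublets 4 members were higher in hippocampal endothelium and 0 in hippocampal astrocytes. Resolution 1.0, the median-of-ratios scaling and the 10% mitochondrial limit each gave 0 for astrocytes and 1 for ependymal cells, the last with a cortical share of 12%. At resolution 0.2 the cortical Ccl3 and Ccl4 subcluster had 2. The mean over single cells gave 0 lower in hippocampal endothelium, 1 in ependymal cells and 4 in the cortical interferon subcluster. The cause of these moves was not tested.

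Leaving out 1 library at a time gave 0 to 1 members higher in hippocampal microglia, 6 to 9 higher and 0 to 1 lower in hippocampal endothelium, 0 to 3 higher in hippocampal astrocytes, 2 to 7 higher in hippocampal macrophages, 5 to 8 in hippocampal macrophages over microglia, 7 to 11 in the hippocampal interferon subcluster, 3 in the cortical one, and 0 to 1 higher in the cortical and 0 to 1 lower in the hippocampal Ccl3 and Ccl4 subcluster. The counts of 7 and 8 for macrophages came without the second hippocampal library, and the share of hippocampal macrophages with a class II UMI, 5.435% to 11.7%, was highest without it. The cortical share was 7.143% to 8.772%. H2-Q7 in cortical macrophages over microglia rested on 1 macrophage UMI, in the second library, without which no ratio could be given, and H2-DMb2 in hippocampal macrophages had none without the second hippocampal library. The macrophage, lymphocyte and ependymal values rest on few cells, which limits what the depth can show.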
